A study of Mus musculus with 6 samples.

Results

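The genes described here mark Schwann cells, the glia of peripheral nerve, and were followed in mouse muscle captured at neuromuscular junctions (NMJs) and away from them. They were chosen by symbol as genes of glial identity rather than of myelin: S100b, Sox10, Ngfr, Cdh19, Foxd3, Gfap, Egr2, Fa2h, Gap43 and Ednrb. Of the 10 symbols, 9 had an array row annotated with that symbol alone, among 23332 rows in all. Each of the 9 had a single such row, so no choice between rows was needed. Cdh19, a cadherin gene of the Schwann cell lineage, lacked a row of this kind and is not analysed here.

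At each junction the motor axon ends on the muscle fibre under a cap of terminal Schwann cells, which do not make myelin, while the axon leading to it is wrapped by myelinating Schwann cells. Both kinds descend from the neural crest. Sox10 keeps that lineage in place, Egr2 turns on the myelin programme in cells that wrap an axon, and S100b is the usual stain for Schwann cells at the junction.

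The tissue was the tibialis anterior, a fast muscle of the lower leg, from ICR mice, an outbred strain, at 16 weeks of age. Junctions were located by staining sections for acetylcholinesterase activity on ice for 10 min, and 9973 of them were captured by laser, with a matched area lacking junctions taken from the same fibres. Amplified cDNA from 10 ng of RNA per sample was read on exon arrays, with 3 NMJ and 3 non-NMJ arrays. The labels describe no treatment or genetic change, and do not say how many animals were used or whether arrays share animals, so the p-values measure the spread between these samples only.

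Expression is given as RMA values on a log2 scale, and the number of arrays limits their precision. Array medians were 4.49 to 4.53 in NMJ samples and 4.37 to 4.38 in non-NMJ samples. Correlations over all rows were 0.988 to 0.99 among NMJ arrays, 0.98 to 0.983 among non-NMJ arrays and 0.953 to 0.961 between the regions. A row was called at a limma p under 0.05 after Benjamini-Hochberg adjustment across the whole table. In all, 3351 rows were called higher and 2013 lower in NMJ regions. Higher calls made up 62.5% of the total, 46.6% when arrays were quantile normalized and 41.7% when they were centred on their medians. Centring shifted the median difference over all rows from -0.01 to -0.15.

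The Schwann cell identity genes were mostly higher at the junction. Of the 9 measured, 7 were called higher and 0 lower, where 14.4% of all rows were called higher and 8.63% lower. All rows include unnamed ones, which could not be members. With single-symbol rows fitted alone, 3161 of 14996 were called higher, or 21.1%, and 1959 lower. The same shares are the background of the other list counts below. The median log2 difference of the members, NMJ minus non-NMJ, was 1.29, against -0.01 over all rows. S100b rose the most, 10.5-fold, followed by Ednrb at 5.24-fold, Egr2 at 3.82-fold, Sox10 at 2.85-fold, Foxd3 at 2.45-fold and Fa2h at 2.33-fold. Ngfr, at 1.28-fold, passed the threshold by a small margin and kept the call in 4 of the 15 alternatives that tested it. Gfap and Gap43 were not called. None was lower at an unadjusted p under 0.05 either. All 3 NMJ arrays lay above all 3 non-NMJ arrays for the 7 called genes, as they did for 22.8% of all rows. In tissue taken in bulk, more Schwann cells in the captured area, more RNA per Schwann cell and RNA from other captured cells cannot be told apart.

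**Figure D1:**
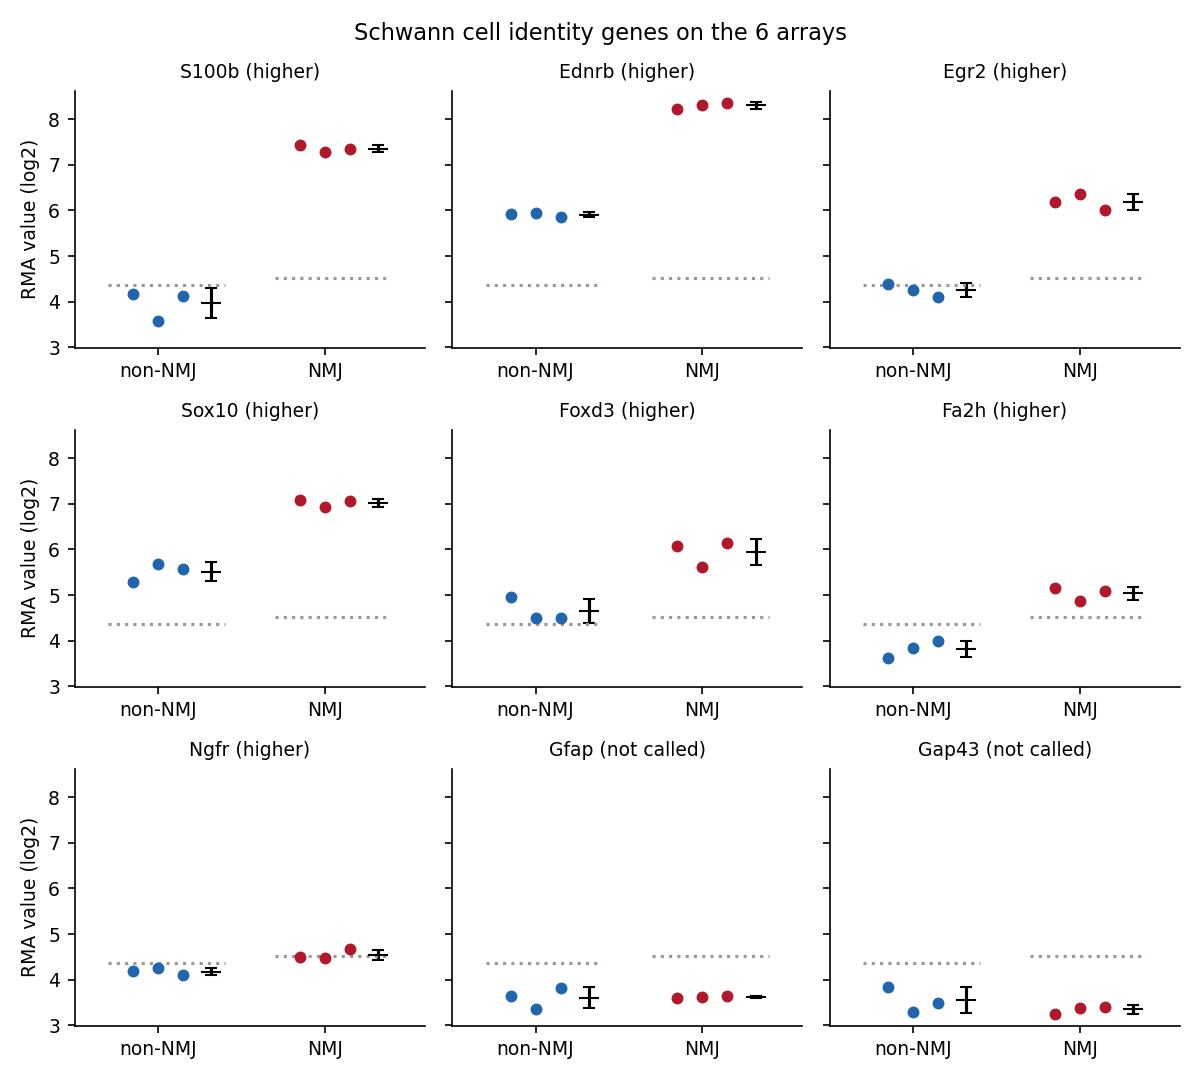
RMA values (log2, vertical axis) of the 9 measured identity genes, in a panel each, on the 3 non-NMJ (blue) and 3 NMJ (red) arrays; black marks are means with SD, and dotted lines are the mean of the array medians of each region. The regions separate for S100b, Ednrb, Egr2, Sox10, Foxd3, Fa2h and, narrowly, Ngfr, while Gfap and Gap43 overlap and stay under the dotted lines.

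Sequences before the annotated start were printed for S100b and Ednrb, the members with the largest differences, for Ngfr, whose difference was small, and for Gfap, which was not called, so that the start regions can be set side by side. RefSeq promoter sequences (GRCm38.p6) matched 6 of the 10 symbols: S100b, Ngfr, Foxd3, Gfap, Egr2 and Ednrb. The windows are the 250 bases before the start, 5′ to 3′ on the strand of the gene, at chr10:76253586-76253835 (plus strand) for S100b, chr14:103843702-103843951 (minus strand) for Ednrb, chr11:95587699-95587948 (minus strand) for Ngfr and chr11:102897201-102897450 (minus strand) for Gfap. Capitals mark GGGCGG or its reverse complement, the GC box that Sp1 factors bind.
S100b: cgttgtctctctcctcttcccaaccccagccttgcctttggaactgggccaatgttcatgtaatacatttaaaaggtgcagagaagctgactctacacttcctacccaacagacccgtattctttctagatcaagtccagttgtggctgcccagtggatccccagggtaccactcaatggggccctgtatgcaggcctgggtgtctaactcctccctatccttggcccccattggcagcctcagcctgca
Ednrb: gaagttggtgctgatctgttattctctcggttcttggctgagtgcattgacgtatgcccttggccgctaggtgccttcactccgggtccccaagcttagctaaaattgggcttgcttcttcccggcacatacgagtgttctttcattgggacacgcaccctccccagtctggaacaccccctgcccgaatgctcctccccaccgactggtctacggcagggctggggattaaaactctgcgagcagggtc
Ngfr: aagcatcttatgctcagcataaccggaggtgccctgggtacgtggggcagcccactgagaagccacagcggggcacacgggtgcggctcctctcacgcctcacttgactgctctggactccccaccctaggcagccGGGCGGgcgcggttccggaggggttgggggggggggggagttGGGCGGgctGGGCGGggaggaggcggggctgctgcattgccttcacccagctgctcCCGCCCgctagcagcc
Gfap: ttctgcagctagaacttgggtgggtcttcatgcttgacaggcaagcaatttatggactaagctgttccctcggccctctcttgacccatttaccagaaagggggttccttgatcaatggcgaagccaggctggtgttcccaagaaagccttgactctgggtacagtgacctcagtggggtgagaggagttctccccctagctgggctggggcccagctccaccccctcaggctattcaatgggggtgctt

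These windows differed in base composition. The GC content was 53.6% for S100b, 56.8% for Ednrb, 70.4% for Ngfr and 55.6% for Gfap, against a median of 52.4% over 32851 promoter windows. The S100b and Gfap windows each held 2 CpG dinucleotides, the Ednrb window 11 and the Ngfr window 16. The GC box was present at 4 places for Ngfr and in none of the other 3 windows shown. It also occurred in 2 of the 5 windows listed for alternative starts of Egr2, and in 32.7% of all windows. ACAAAG and ACAATG, 2 forms of the SOX core, were each searched on both strands. They were in 0 of the 10 windows of the 6 members, and in 16.5% and 10.7% of all windows. The EGR letters GCGTGGGCG (0.536% of all windows) and GCGGGGGCG (2.57%) and the TATA letters TATAAA (12.4%) were likewise in 0 of the 10. The 5 Egr2 windows overlap in part. Other forms of the SOX core, such as TCAATG, were not searched. Of the windows shown, those of S100b and Gfap hold TCAATG, and that of Ednrb holds its reverse complement. A window without the searched letters says nothing of other forms or of binding elsewhere in a gene.

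Sox10 and Foxd3 are the transcription factors of the neural crest and early glia among the members. Sox10, the SoxE factor that Schwann cells need at every stage, had values of 7.08, 6.92 and 7.06 in NMJ replicates 1, 2 and 3, against 5.28, 5.67 and 5.58 in the non-NMJ replicates. All of its NMJ values were high and close together, and its non-NMJ values lay above the array medians too. The log2 difference was 1.51 ± 0.13 (SE, n = 3 per region; limma adjusted p = 0.000651).

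Foxd3, a forkhead factor that holds back differentiation of crest cells, had values of 6.07, 5.62 and 6.15 in NMJ replicates 1, 2 and 3, against 4.95, 4.50 and 4.50 in the non-NMJ replicates. NMJ replicate 2 was the low array of its region and non-NMJ replicate 1 the high array of the other, and a gap of 0.67 remained between them. The log2 difference was 1.29 ± 0.19 (SE; limma adjusted p = 0.0055), with a 95% interval from 0.82 to 1.76, the widest among the 7 called members.

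Egr2, the zinc finger factor that drives myelination, had values of 6.18, 6.37 and 6.0 in NMJ replicates 1, 2 and 3, against 4.39, 4.26 and 4.10 in the non-NMJ replicates. The regions stood 1.61 apart at their nearest arrays, and the mean log2 difference was 1.93 ± 0.13 (SE; limma adjusted p = 0.000296). Egr2 is listed with the identity genes here, although its best known targets are myelin genes.

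S100b, a calcium-binding protein abundant in Schwann cells, had values of 7.44, 7.27 and 7.35 in NMJ replicates 1, 2 and 3, against 4.18, 3.58 and 4.13 in the non-NMJ replicates. Every non-NMJ value was below the median of its array, and non-NMJ replicate 2 was the lowest. NMJ regions averaged 7.35 ± 0.08 and the other regions 3.97 ± 0.33 (SD, n = 3 each). The log2 difference of 3.39 ± 0.18 (SE; limma adjusted p = 0.000112) was exceeded by 86 rows, or 0.369% of all rows.

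Fa2h makes the 2-hydroxylated fatty acids of the galactolipids that Schwann cells place in myelin. Its values were 5.15, 4.88 and 5.10 in NMJ replicates 1, 2 and 3, against 3.62, 3.85 and 3.99 in the non-NMJ replicates. All NMJ values were above and all non-NMJ values below the median of their array, and the regions differed by 1.22 ± 0.13 (log2, SE; limma adjusted p = 0.00163).

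Ednrb, the endothelin receptor of crest-derived cells, which endothelium also carries, had values of 8.22, 8.31 and 8.36 in NMJ replicates 1, 2 and 3, against 5.93, 5.94 and 5.85 in the non-NMJ replicates. The SD was 0.07 in NMJ regions and 0.05 elsewhere (n = 3), and the regions stood 2.28 apart at their nearest arrays. NMJ regions were higher by 2.39 ± 0.08 (SE, log2), with a limma adjusted p of 2.75e-05, the smallest among the members. Of 8 endothelial markers, 0 were called higher, 5 lower and 3 neither, where 8.63% of all rows were lower. Their differences ran from -0.87 to 0.06, with a median of -0.39. The summed level was 9.51 to 9.65 in NMJ regions and 9.91 to 10.11 elsewhere (log2). Leaving out any array other than non-NMJ replicate 3 left 2 lower endothelial markers. The part of endothelium in the Ednrb difference was not tested.

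Ngfr, the low-affinity neurotrophin receptor p75, is raised in immature and injured Schwann cells and is also present on motor axons during growth. Its values were 4.50, 4.47 and 4.67 in NMJ replicates 1, 2 and 3, against 4.19, 4.26 and 4.10 in the non-NMJ replicates. The regions were 0.21 apart at their nearest arrays, and all values but that of NMJ replicate 3 lay below the median of their array. NMJ regions were higher by 0.36 ± 0.10 on the log2 scale (SE; limma adjusted p = 0.0411), with a 95% interval from 0.13 to 0.59. The call ended with the replicate number as a block (adjusted p = 0.0929), after quantile normalization (0.24; adjusted p = 0.11) and after median centring (0.22; adjusted p = 0.143). It also ended when any 1 of the 6 arrays was left out, with limma adjusted p-values from 0.064 to 0.113. With an intensity trend and robust prior the adjusted p was 0.0511.

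Gfap and Gap43 are the members linked to reactive glia and growing nerve. Gfap, the intermediate filament gene of astrocytes and of Schwann cells without myelin, had values of 3.60, 3.63 and 3.64 in NMJ replicates 1, 2 and 3, against 3.65, 3.36 and 3.82 in the non-NMJ replicates. The NMJ values lay inside the range of the non-NMJ values. The log2 difference was 0.01 ± 0.13 (SE; limma adjusted p = 0.962), with a 95% interval from -0.31 to 0.33, which corresponds to 0.809-fold to 1.26-fold.

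Gap43, a growth cone protein of axons that terminal Schwann cells express after denervation, had values of 3.25, 3.39 and 3.41 in NMJ replicates 1, 2 and 3, against 3.85, 3.30 and 3.50 in the non-NMJ replicates. The regions overlapped, and non-NMJ replicate 1 was the high array. The mean difference was -0.20 ± 0.15 (SE; limma adjusted p = 0.418), with a 95% interval from -0.57 to 0.17. Both genes were below the array median on all 6 arrays. No detection calls were used, so their level over background is unknown. The same limit holds for the non-NMJ values of S100b, Fa2h and Ngfr, and for 2 of the 3 of Egr2. Folds of these 4 genes are those of the RMA values only. The limit holds as well for Gjc3, L1cam, Gal3st1, Ugt8a, Cldn1 and Megf10, given further on, whose non-NMJ values were all below the array medians.

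**Figure D2:**
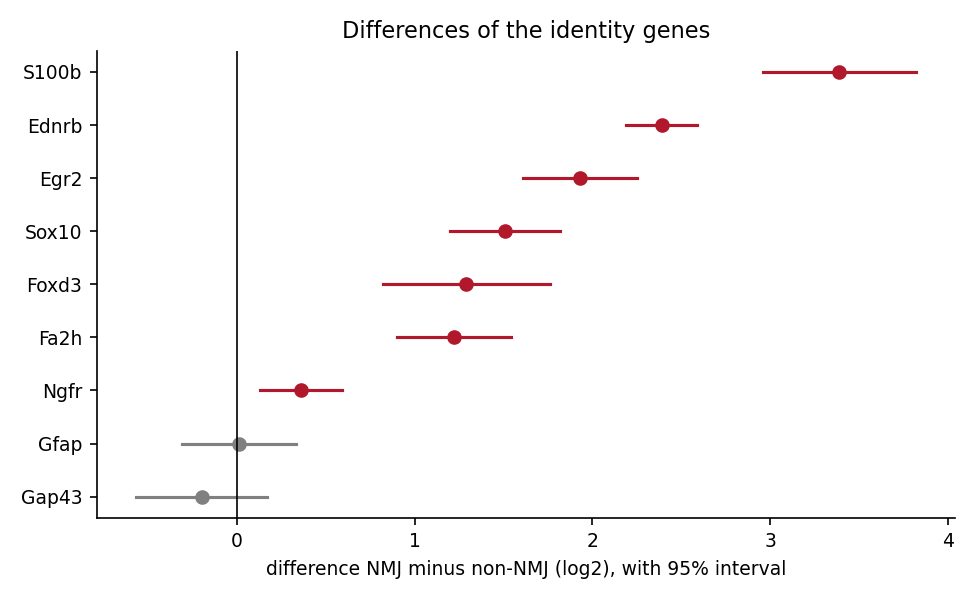
Log2 differences, NMJ minus non-NMJ, of the 9 identity genes (points) with 95% intervals from limma (lines; n = 3 arrays per region), red where called higher. The intervals of S100b (2.96 to 3.82) and Ednrb (2.19 to 2.59) do not meet, those of Foxd3 and Fa2h lie on top of each other, and those of Gfap and Gap43 include 0.

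The members also differed in how tightly their arrays agreed. The median SD over members was 0.09 in NMJ regions and 0.21 in non-NMJ regions, against 0.13 and 0.17 over all rows. The SD was larger in non-NMJ regions for 5 of 9 members, or 55.6%, and for 63.4% of all rows.

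For each called member, the 3 rows nearest in pattern were taken by the root mean square (RMS) difference of mean-centred log2 values over the 6 arrays, a measure set mostly by the size of the difference between regions. For S100b these were Nrn1, the neuritin gene (RMS 0.141, log2 difference 3.36), Slc45a3 (0.149) and P3h2 (0.15). For Ednrb they were Apoe, the lipid carrier gene (RMS 0.067, log2 difference 2.30), Sertad4 (0.073) and Dnm2 (0.093). For Sox10 they were Rhoj (0.071), Phlda1 (0.072) and Myrip (0.08), for Egr2 Col6a1 (0.048), Cask (0.062) and Cdon (0.07), and for Fa2h Prdm8 (0.03), Col18a1 (0.07) and Shc1 (0.08). Foxd3 had Timp1 (0.108), Nt5c (0.157) and C1galt1c1 (0.159), and Ngfr had Irak3 (0.031), Prkar2b (0.039) and Cep250 (0.04). None of these was another identity gene.

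Myelin and other Schwann cell genes were higher in the same arrays. Of 13 measured, 11 were called higher and 0 lower, with a median of 2.08 and a range from 0.01 to 4.03. Gjc3, a connexin gene of myelinating glia, rose by 4.03 ± 0.18, Pmp22, of compact myelin, by 3.11 ± 0.11, L1cam, an adhesion molecule gene more typical of Schwann cells without myelin, by 2.90 ± 0.11 and Erbb3, the neuregulin receptor gene, by 2.41 ± 0.12 (SE). Cspg4, which encodes NG2 and in muscle marks terminal Schwann cells together with S100b, but is also a pericyte gene, rose by 1.57 ± 0.16. Dhh, the hedgehog ligand of Schwann cells, stood at 0.01 ± 0.07 and Gjb1, a connexin gene of myelin, at 0.71 ± 0.33 (SE), neither called. Genes of myelin and genes of glia without myelin were both among the calls, so the values do not set terminal Schwann cells apart from myelinating ones, and the 9 members are called Schwann cell identity genes for that reason.

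Other transcription factors of the crest and Schwann cell lineage had 3 of 13 genes called higher, 0 lower and a median of 0.22. The share higher was near that of single-symbol rows fitted alone, 21.1%, where 14.4% of all rows were higher. Zeb2, a repressor that myelination needs, rose by 1.44 ± 0.08, and Nab2, the partner of Egr proteins, by 0.85 ± 0.10 (SE). Pou3f1, which precedes Egr2 in myelination, rose by 0.46 ± 0.11 (limma adjusted p = 0.0272), a call that ended when any 1 of the 6 arrays was left out (adjusted p = 0.0527 to 0.0747), after quantile normalization (0.177) and after median centring (0.0836). The SoxE relatives of Sox10 were not called: Sox8 stood at 0.30 ± 0.17 and Sox9 at 0.36 ± 0.14 (SE; limma adjusted p = 0.291 and 0.132), although Sox9 passed without non-NMJ replicate 3 (0.0228). Jun, the factor of the repair state, stood at -0.14 ± 0.08 (SE; adjusted p = 0.303), and passed as lower after median centring (0.048). Tfap2b, a crest factor, stood at -0.31 ± 0.09 (SE; adjusted p = 0.0629), and passed as lower after median centring (0.0143), with the dimmest 25% of rows left out (0.0419) and with only single-symbol rows (0.0314). The differences between Sox10 and these relatives were not tested.

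Close relatives of the members moved in both directions, with 7 of 17 called higher, 1 lower and a median of 0.31; 3 were lower after quantile normalization and 4 after median centring. S100a1, the S100 gene of striated muscle, fell by 0.99 ± 0.11 (SE; limma adjusted p = 0.00186). Its values were 9.83, 9.91 and 9.58 in NMJ replicates 1, 2 and 3, against 10.77, 10.81 and 10.70 in the non-NMJ replicates, so the regions did not overlap and were ordered opposite to S100b. Among the filament genes related to Gfap, Nes (nestin), which muscle fibres also express at the junction, rose by 4.95 ± 0.15 and Vim (vimentin) by 0.81 ± 0.10. Tnfrsf21, a death receptor gene in the family of Ngfr, rose by 1.57 ± 0.14 (SE).

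Partners of single members gave mixed results. Of 6 neurotrophin and receptor genes measured, 1 was called higher and 0 lower, with a median of -0.08, where 14.4% of all rows were higher. The called gene was Ntrk2, the receptor of BDNF, at 8.04, 8.04 and 7.98 in NMJ replicates 1, 2 and 3, against 5.60, 5.31 and 5.45 in the non-NMJ replicates, a rise of 2.57 ± 0.10 (SE; limma adjusted p = 4.22e-05). The regions were far apart for Ntrk2 and close together for Ngfr. Bdnf stood at 0.09 ± 0.11 (SE; not called).

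The endothelin list around Ednrb had 0 of 5 genes called higher (0 at an unadjusted p under 0.05) and 1 lower, with a median of -0.04. Edn3, the ligand that acts with Ednrb in crest cells, stood at -0.04 ± 0.09 (SE; limma adjusted p = 0.821) and was below the median on every array. Edn1, the endothelial ligand, stood at 0.12 ± 0.19 (SE; not called). Ece2, an endothelin-converting enzyme gene, fell by 0.37 ± 0.08 (limma adjusted p = 0.0217) in the brighter of its 2 rows. The Ece2 call ended with the replicate block (0.0545) and on leaving out any array other than non-NMJ replicate 1 (0.0506 to 0.0809).

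In the lipid pathway around Fa2h, 7 of 9 genes were called higher and 1 lower, with a median of 0.79. At an adjusted p under 0.01 the number higher was 4. The lower gene was Kdsr, by 0.32, and the call ended with the replicate block and when any 1 of the 6 arrays was left out. Elovl1, which extends very long fatty acids, rose by 1.47 ± 0.12, Aspa, which frees acetate for myelin lipids, by 1.31 ± 0.20, and Degs1 and Gal3st1, of ceramide and sulfatide synthesis, by 0.80 ± 0.11 each (SE). Ugt8a, the galactosyltransferase that uses the ceramides of Fa2h, rose by 0.46 ± 0.11 (limma adjusted p = 0.0312) from a level below the median on every array. The Ugt8a call ended after median centring (0.0769), with an intensity trend and robust prior (0.0508), without variance moderation (0.0575) and on leaving out any array other than non-NMJ replicate 2 (0.0553 to 0.106).

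**Figure D3:**
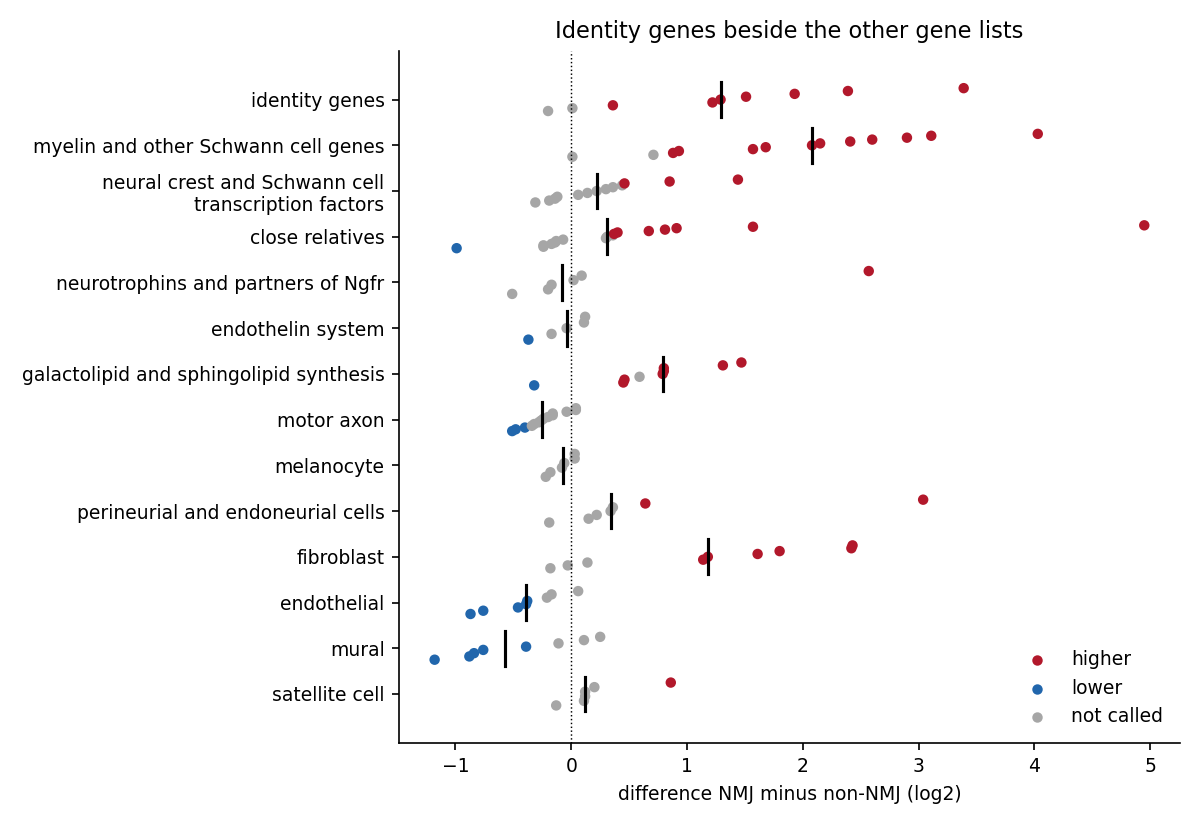
Log2 differences, NMJ minus non-NMJ, of every measured gene in the identity list and the 13 other lists (1 point a gene, red called higher, blue called lower, grey not called; black bars are list medians). The medians were 1.29 for the identity genes, 2.08 for the myelin list and 1.18 for fibroblast markers, and were at or below 0.79 for the other lists.

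Markers of other cells that could carry these genes were set beside them. The motor axon list, which bears on Gap43 and Ngfr, had 0 of 14 genes called higher (0 at an unadjusted p under 0.05) and 3 lower, with a median of -0.25 and a summed level of 7.12 to 7.18 in NMJ regions and 7.39 to 7.41 elsewhere (log2). The 3 lower genes were Uchl1, Isl1 and Mnx1, by 0.51, 0.48 and 0.40, and 0 of them passed without NMJ replicate 1 or 2 (adjusted p = 0.0513 to 0.097). With the dimmest 50% of rows left out, the 3 genes were removed and not tested. At an adjusted p under 0.01 the list had 0 lower genes. Without NMJ replicate 3 it had 1, and the Mnx1 call also ended with the replicate block (adjusted p = 0.0576). Chat, which makes acetylcholine in motor neurons, stood at 0.04 ± 0.10 (SE; not called). Chat and the 3 lower genes were below the median on every array, so their level over background is unknown. Motor neuron cell bodies lie in the spinal cord, outside the captured tissue.

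The melanocyte list, which bears on Sox10, Ednrb and Foxd3, had 0 of 6 genes called in either direction by limma, 0 of them with an unadjusted p under 0.05, and a median of -0.07. Pmel passed as lower after median centring (adjusted p = 0.0496). Its defining genes Dct, Tyr, Tyrp1 and Pmel were below the median on all 6 arrays. Their summed level with Mitf and Slc45a2 was 7.11 to 7.16 in NMJ regions and 7.08 to 7.42 elsewhere (log2). Mitf, with values from 6.49 to 6.97 on the 6 arrays, was the brightest of the list and made up most of that sum.

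The perineurial and endoneurial list had 2 of 7 genes called higher and 0 lower, where 14.4% of all rows were higher. At an unadjusted limma p under 0.05, 5 of the 7 were higher and 0 lower. The median of the list was 0.34, with a summed level of 8.88 on each NMJ array and 8.41 to 8.55 elsewhere (log2). After quantile normalization 1 was called lower, Osr2, which stood at -0.19 ± 0.10 (SE) and was not called in the main setting. Cldn1, a tight junction gene of perineurium, rose by 3.04 ± 0.21 and Itgb4, an integrin gene of perineurium and Schwann cells, by 0.64 ± 0.11 (SE). The fibroblast list had 6 of 9 genes called higher and 0 lower, with a median of 1.18 and a summed level of 13.15 to 13.21 in NMJ regions and 11.55 to 11.67 elsewhere (log2). Pdgfra and Lum rose by 2.43 ± 0.18 and 2.42 ± 0.13 (SE). The part of these cells in the differences of the identity genes was not tested.

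Mural cell markers were lower in 5 of 8 cases and higher in 0, where 8.63% of all rows were lower. The mural median was -0.57, with a summed level of 10.51 to 10.61 in NMJ regions and 11.24 to 11.40 elsewhere (log2). Pdgfrb, a pericyte receptor gene at 0.25 ± 0.08 (SE; not called), was the 1 mural marker called higher with the dimmest 25% or 50% of rows left out, with only single-symbol rows and without variance moderation. Rgs5, a pericyte gene, fell by 1.18 ± 0.11 (SE), while Cspg4, shared by pericytes and terminal Schwann cells, rose. Of 6 satellite cell markers, Megf10 was called higher, by 0.86 ± 0.10 (SE), and 0 were lower, with a median of 0.12. Over all rows 14.4% were called higher. Pax7, the defining gene of satellite cells, stood at 0.11 ± 0.09 (SE; not called).

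**Figure D4:**
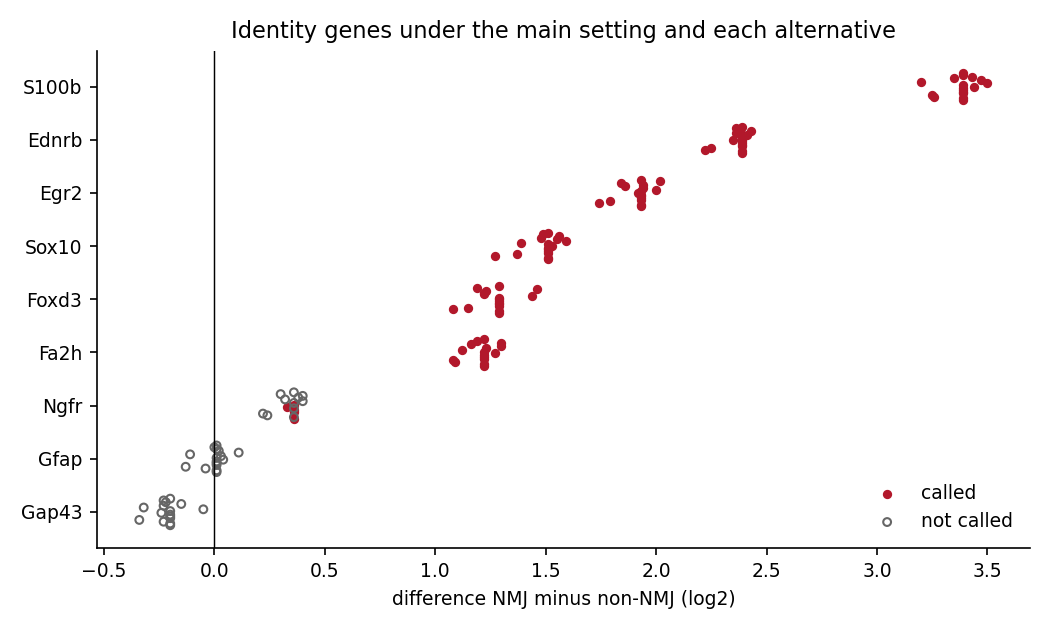
Log2 differences of the 9 identity genes, NMJ minus non-NMJ, in the main setting and in each alternative that could test the gene (points spread vertically for view only; filled red called higher, open grey not called). S100b (3.20 to 3.50), Ednrb (2.22 to 2.43), Egr2 (1.74 to 2.02), Sox10 (1.27 to 1.59), Foxd3 (1.08 to 1.46) and Fa2h (1.08 to 1.30) are filled throughout, Ngfr changes between filled and open, and Gfap lies on both sides of 0.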

How the data were processed

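The deposited values are gene-level log2 values that the authors made with RMA in Affymetrix Expression Console and Transcriptome Analysis Console, per the submitters' processing notes; their versions and settings and the genome build are not stated in those notes. RMA compresses differences in very dim rows. The scale was inferred from the range, 0.87 to 13.97. All 23332 rows were tested; the platform's gene table gave 14996 of them 1 symbol, 1019 several and 7317 none. The 9 measured members matched RefSeq (GRCm38.p6) by gene identifier with the same symbol. Where a listed gene had several single-symbol rows, the row with the highest mean was used. Among the list genes, Ece2 and Rgs5 had 2 such rows each, and their other rows are not given.

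Regions were compared with limma 3.58.1 in R 4.3.3 (lmFit, eBayes, two-sided), with region as the only term and Benjamini-Hochberg adjustment over all rows. Errors of differences are SE of the fit, a fold is 2 raised to the difference, and intervals are 95% intervals of the fit. An exact permutation test of 3 against 3 arrays cannot go below p = 0.1 and was not used. The limma step was tested on simulated data. Summed levels are log2 of the sum of unlogged values.

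The members and the 13 other lists were chosen with earlier results of these data known. All members were named, and further genes by a rule: up to 4 per list with the smallest p, a few fixed genes, and the 3 nearest in pattern to each called member. Dhh, Gjb1, Kdsr, Pdgfrb and Osr2, exceptions to counts, were chosen with their values in view. Alternatives were quantile normalization, the replicate block, centring on array medians, removal of dim or unnamed rows, 3 other variance settings, a threshold of 0.01 and omission of each array.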

Additional observations from a re-analysis of the deposited data

How the results depend on the processing

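The number of rows called was 5364. It was 2776 at an adjusted p under 0.01, and between 3373 (without NMJ replicate 1) and 4706 when a single array was omitted, with 3535 without NMJ replicate 2. The identity genes called higher numbered 6 of 9 rather than 7 wherever Ngfr lost its call, and 5 of the 5 still tested without the dimmest 50% of rows. S100b, Sox10, Foxd3, Egr2, Fa2h and Ednrb kept their direction and call in every alternative that tested them. Deviations from the region means correlated at 0.047, 0.035 and 0.184 between same-numbered arrays, and at -0.15 to 0.111 between the others. These few weak correlations cannot settle whether the replicate numbers pair the arrays. With the replicate block 5064 rows and 6 identity genes were called, Ngfr being lost (adjusted p = 0.0929).

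Differences near 0 changed sign without a call. Gfap stood at -0.04 after quantile normalization, -0.13 after median centring, and between -0.11 (without non-NMJ replicate 2) and 0.11 (without non-NMJ replicate 3). Quantile normalization also turned Edn1 (-0.02), Myf5 (-0.01) and Pax7 (-0.05), and median centring turned Bdnf (-0.05), Ece1 (-0.03), Edn1 (-0.02) and Pax7 (-0.03). Across omissions of an array, Edn3 ran from -0.08 to 0.01, Mitf from -0.19 to 0.05, Tyrp1 from -0.14 to 0.04 and Edn1 from -0.02 to 0.30. Causes were not tested. No member had several rows, so averaging rows changed nothing. Signal over background is unknown, which limits what Gfap, Gap43 and the non-NMJ values of S100b, Fa2h, Ngfr and Egr2 can show.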
